A study of Mus musculus with 6 samples.

Results

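The Tshb locus neighbours are 5 genes that lie beside Tshb on mouse chromosome 3: Sycp1, Tspan2, Sike1, Nras and Ampd1. They were taken by name from all 6 deposited isoform tables, among 32908 genes listed in every table, and were chosen by their position and by the measured levels of an earlier reading, in which Tshb and Sycp1 stood high in the same libraries. The values below therefore describe the members and test nothing. The transcripts that the authors' assembly placed around these genes without a name were examined with them.

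Tshb encodes the beta subunit of thyrotropin, the hormone of the pituitary thyrotrope that drives the thyroid gland. Neighbouring genes often share a chromatin domain, and transcription of a very active gene can also run into or past its neighbours, so the genes around a hormone gene are commonly looked at for levels that follow it. None of the 5 neighbours is a hormone gene. SYCP1 forms the transverse filaments of the synaptonemal complex that joins paired chromosomes in meiosis, TSPAN2 is a tetraspanin membrane protein found in myelin-forming cells, SIKE1 is a suppressor of IKK-epsilon and TBK1, NRAS is a small GTPase of the Ras family, and AMPD1 is the AMP deaminase of skeletal muscle.

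RNA was sequenced in 6 libraries from pituitary glands, 1 library for each group. Cells sorted by FACS for a fluorescent reporter came from 42 pooled adult Tshbcre-YFP glands, from 5 pooled Tshbcre-YFP glands at postnatal day 7 (P7), from 12 pooled adult Ghcre-YFP glands and from 7 pooled adult Lhbcre-YFP glands. Unsorted, nontransgenic controls were 1 whole adult gland and 8 pooled whole P7 glands, and adults were 7 weeks old. Each sorted group carried the ROSA YFP reporter and a Cre driven by the named gene, so a sorted cell is one that, or whose precursor, had used that driver. The sources used here do not say how the Tshbcre allele was built or whether it brought extra copies of neighbouring genes, Sycp1 among them, and only the Tshbcre libraries carried it, so transcription from such copies, an effect of that allele on its surroundings and a property of Tshb lineage cells cannot be told apart.

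The values are FPKM, fragments scaled to transcript length and to the mapped total of the library, summed over the named transcripts of a gene and divided by 1 scaling factor per library (scaled FPKM). The bounds in brackets are the deposited bounds of each transcript, divided by the same factor and, for a gene, summed over its named transcripts. They cover the reading of 1 library and not the spread between animals, and such a sum is not an interval for the gene total. Differences are of log2(scaled FPKM + 1), and a gene was counted as apart at a 4-fold difference if its higher value reached 1 scaled FPKM. With 1 library per group nothing could be tested and the spread between animals is not known. In bulk RNA fewer cells of a type and less RNA per cell cannot be told apart.

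Tshb itself stood at 1075 (1028 to 1122) scaled FPKM in adult Tshbcre cells and 3001 (2874 to 3127) in P7 Tshbcre cells, against 3.87 in Ghcre cells, 9.05 in Lhbcre cells, 33.1 in the adult gland and 61.0 in the P7 glands. Tshbcre libraries were thus the highest at both ages, and the P7 library exceeded the adult one. The log2 difference was 4.98 in adult Tshbcre cells against the adult gland and 5.60 in P7 Tshbcre cells against the P7 glands. Nearly the whole level was that of NM_001165940.1, an mRNA of 557 nt at chr3:102684714-102690030 (mm39), at 1056 scaled FPKM in adult Tshbcre cells and 2946 in P7 Tshbcre cells. The predicted transcripts XM_006501304.5 and XM_006501305.5, which begin 28145 bases further from the gene body, at position 102718175, were listed at 0 in both Tshbcre libraries.

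Sycp1 (chr3:102725815-102843416, 117602 bases) was the neighbour that stood with Tshb. It had 15.1 (14.2 to 16.0) scaled FPKM in adult Tshbcre cells and 14.0 (13.1 to 14.9) in P7 Tshbcre cells, against 0.0644 in Ghcre cells, 0 in Lhbcre cells, 0 in the adult gland and 0.0549 in the P7 glands. On named transcripts the level was above 10 in both Tshbcre libraries and under 0.1 in the other 4. At limits of 10 or more and 0.1 or less, 2 of the 32908 genes listed in every table had this pattern, which was known when Sycp1 was chosen. With the unnamed transcripts of its identifier Sycp1 was at 1.28 in Ghcre cells. The log2 difference was 4.01 in the adult comparison and 3.83 in the P7 comparison, which are folds of 16.1 and 14.2 on the scale with 1 added. Adult Tshbcre cells were 4.01 higher than Lhbcre cells on the log2 scale and 3.92 higher than Ghcre cells. Tshb was 2.79-fold lower in the adult than in P7 Tshbcre cells. The named Sycp1 transcripts differed by a log2 difference of 0.10 between them, but with the unnamed transcripts of its identifier Sycp1 was 1.97-fold lower in the adult, at 15.1 against 30.6 at P7.

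**Figure D1:**
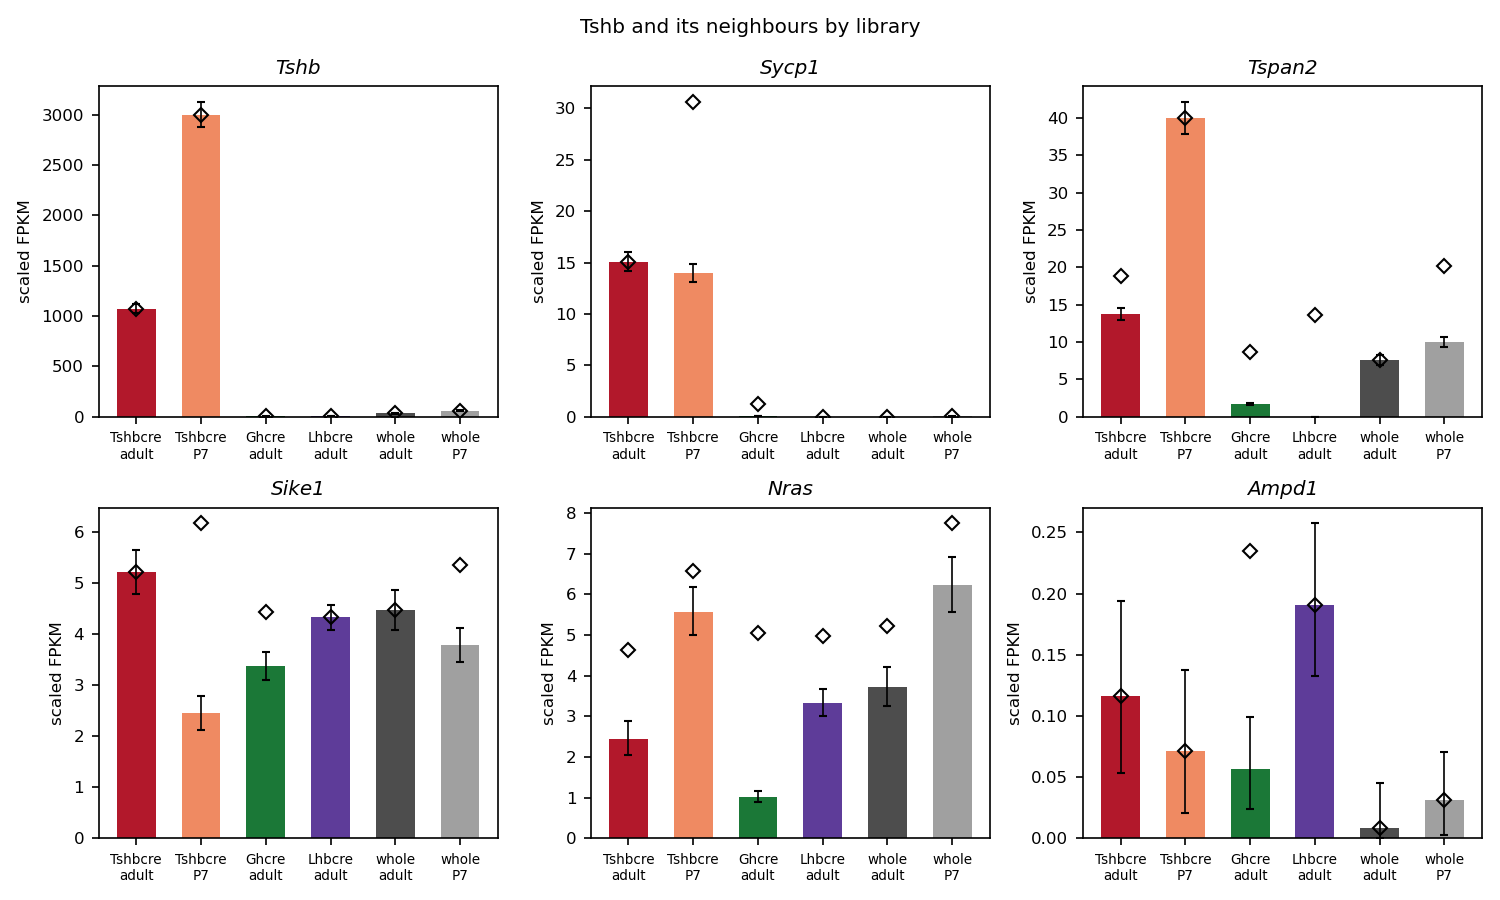
Scaled FPKM of Tshb and its 5 neighbours in each library. Bars are sums over named transcripts with the summed deposited bounds as lines, and diamonds add the unnamed transcripts that carry the same gene identifier. The Sycp1 bars are at 15.1 and 14.0 in the Tshbcre libraries and near 0 in the other 4. Its diamonds reach 30.6 in P7 Tshbcre cells and 1.28 in Ghcre cells. Sike1 and Nras have like levels in every library once the diamonds are read.

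In the adult Tshbcre comparison 4 members reached 1 scaled FPKM on either side, and 1 of them, Sycp1, was apart and higher. Over all 15797 genes compared there, 7.06% were apart, 3.22% higher and 3.84% lower. In the P7 comparison 1 of 4 members was likewise apart and higher, again Sycp1, where 9.38% of 16370 genes were apart, 3.26% higher and 6.11% lower. With the unnamed transcripts of its own identifier added to each gene, Sycp1 was again the 1 member apart at both ages, where 5.22% of genes were apart in the adult and 8.01% in the P7 comparison. A share of 1 in 4 members comes from a single gene that entered the count only through the libraries where it was high, and it is no result about the members as a group. The median log2 difference of the 4 measured members was 0.48 in the adult and 0.88 in the P7 comparison, beside -0.02 and -0.01 over all genes. Sycp1 ranked 134 from the highest in both comparisons, and Tshb ranked 73 in the adult and 51 in the P7 comparison.

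**Figure D2:**
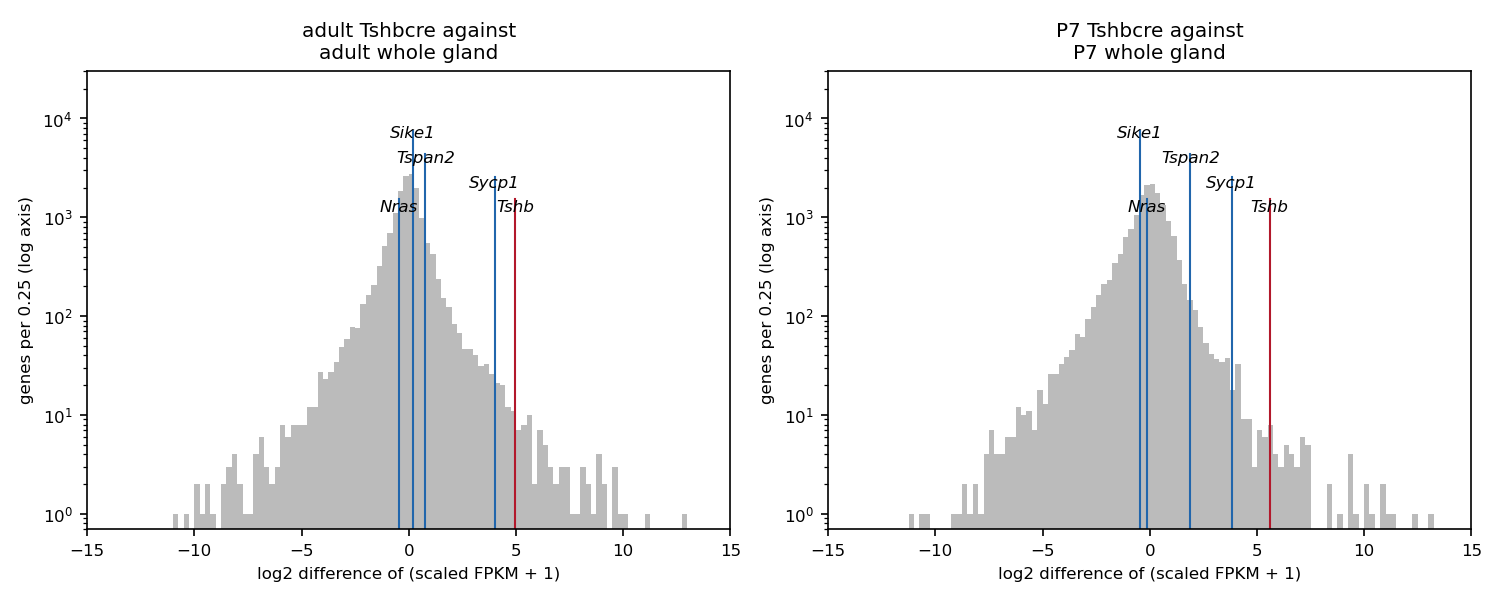
Number of genes per step of 0.25 in log2 difference of (scaled FPKM + 1), on a log axis, for adult Tshbcre cells against the adult gland (left) and P7 Tshbcre cells against the P7 glands (right). Lines mark Tshb and the 4 measured neighbours; Sycp1 lies in the upper tail at 4.01 and 3.83, and Sike1 and Nras lie near 0.

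All of the named Sycp1 level in the Tshbcre libraries was on the predicted transcript XM_006501229.1, of 2638 nt, which spans chr3:102726021-102833093. The full-length transcript NM_011516.2, of 3437 nt, begins 10323 bases further out, at 102843416, and was at 0 in both Tshbcre libraries, with upper bounds of 0.0102 in the adult and 0.0105 in the P7 library. In Ghcre cells and the P7 glands the reverse held: the low values of 0.0644 and 0.0549 were on NM_011516.2 and none on XM_006501229.1. On the full-length transcript alone the log2 difference was 0 in the adult and -0.077 in the P7 comparison, so the Tshbcre level is that of the transcript lacking the outermost 5′ part. The P7 Tshbcre table also held CUFF.413695.3, a spliced unnamed transcript of 980 nt under the Sycp1 identifier at chr3:102783309-102820801, with 16.6 (15.1 to 18.2) scaled FPKM. With it the P7 Tshbcre level of Sycp1 was 30.6, and the log2 difference from the P7 glands 4.91. In the adult Ghcre table CUFF.809956.3, 316 nt at the very 5′ end of NM_011516.2, had 1.22 (0.56 to 1.87), which put Sycp1 at 1.28 in that library, and adult Tshbcre cells at 7.06-fold above it.

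In RefSeq's promoter table (build GRCm38.p6), 4 of the 6 genes, Tshb included, had an entry. Tshb and Sycp1 both lie on the minus strand there, so Sycp1 is upstream of Tshb and transcription of Sycp1 points at it, while Tspan2 and Nras lie on the plus strand. The 250 bases before the annotated start of Tshb and of Sycp1 are given because these are the genes that stood high together. The Sycp1 window is that of the outer start, the start of NM_011516.2, which was at 0 in both Tshbcre libraries, and no window at the start of XM_006501229.1 was read. They are written 5′ to 3′ with TATAAA (the TATA box) and AGATAA (the core bound by GATA factors, of which GATA2 works on Tshb in thyrotropes), searched on both strands, in capitals.
Tshb, chr3:102782715-102782964: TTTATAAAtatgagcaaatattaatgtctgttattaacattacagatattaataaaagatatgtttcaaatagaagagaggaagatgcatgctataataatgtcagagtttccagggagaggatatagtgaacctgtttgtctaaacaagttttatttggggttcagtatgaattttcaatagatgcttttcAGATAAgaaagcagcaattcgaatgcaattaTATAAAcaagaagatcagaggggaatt
Sycp1, chr3:102936101-102936350: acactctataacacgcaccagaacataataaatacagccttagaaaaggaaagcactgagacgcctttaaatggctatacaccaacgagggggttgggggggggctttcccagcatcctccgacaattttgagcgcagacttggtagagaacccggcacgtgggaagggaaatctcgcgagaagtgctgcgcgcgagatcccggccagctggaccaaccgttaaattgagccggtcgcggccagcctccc

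The Tshb window held 3 matches of TATAAA, at -250 and -248, which overlap on opposite strands, and at -27, and 1 of AGATAA at -58, counted from the annotated start. The Sycp1 window held neither, and it held 2 matches of CANNTG (the E-box) at -94 and -45, where the Tshb window had none. Of 32851 RefSeq promoters of the same length, 12.4% held TATAAA, 9.99% AGATAA and 66.2% CANNTG. Neither window held TAATCC, the core of Pitx factors, which 6.25% of promoters held, or ATGNATA, a core of Pit-1, which 7.92% held. The windows also differed in base composition, with 29.6% G and C and 1 CpG in Tshb and 55.2% and 17 CpG in Sycp1, beside a median of 52.4% over all promoters. Nras had 1 match of AGATAA at -196 and none of TATAAA, and both Tspan2 starts had neither. A match describes these letters only and shows no binding.

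Between the start of the Tshb mRNA and the near end of Sycp1 lie 35784 bases (chr3:102690031-102725814). The assembly held 43 unnamed transcripts wholly within them in adult Tshbcre cells and 53 in P7 Tshbcre cells, against 28 in Ghcre cells, 9 in Lhbcre cells, 0 in the adult gland and 2 in the P7 glands. They covered 35.3% and 17.5% of these bases in the adult and P7 Tshbcre libraries, against 6.14% in Ghcre, 1.48% in Lhbcre, 0% in the adult gland and 0.285% in the P7 glands. The Tshbcre libraries were thus covered most, and the whole glands hardly at all.

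How much any library's assembly covers differs, so the share was set beside that over the whole of chromosome 3 in the same library. Unnamed transcripts covered 4.13% of the chromosome in adult Tshbcre cells, 2.48% in P7 Tshbcre cells, 5.92% in Ghcre, 1.42% in Lhbcre, 3.16% in the adult gland and 2.26% in the P7 glands. The stretch between Tshb and Sycp1 was covered 8.55 times and 7.08 times as densely as the chromosome in the adult and P7 Tshbcre libraries, against 1.04 times in Ghcre, 1.04 times in Lhbcre, 0 times in the adult gland and 0.126 times in the P7 glands. Ratios well above 1 were also found elsewhere in the locus, and between Nras and Ampd1 they were 4.48 and 3.32 in the adult and P7 Tshbcre libraries, against 3.26 in Ghcre, 4.26 in Lhbcre, 3.97 in the adult gland and 14.3 in the P7 glands. The pieces were mostly short and unspliced. At 200 nt or more there were 24 in adult Tshbcre cells and 5 in P7 Tshbcre cells, and none in the other 4, but the share of all unnamed transcripts that reach 200 nt also varied, from 4.25% in Lhbcre to 65.8% in the adult gland. Those 24 pieces had a median of 3.67 scaled FPKM, and the 5 of the P7 library 11.3. Both Tshbcre libraries covered 4256 of the same bases, which was 33.7% of the covered bases in the adult and 67.8% in the P7 library.

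Within the stretch the cover was uneven. The 28145 bases nearest the Tshb mRNA, over which the long predicted Tshb transcripts run, were covered to 43.2% in adult Tshbcre cells and 21.0% in P7 Tshbcre cells. The last 7639 bases before Sycp1 were covered to 6.47% and 4.66%, by 2 pieces in the adult and 3 in the P7 library. A piece at chr3:102725538-102725691 in adult Tshbcre cells (CUFF.281362.1, 41.6 scaled FPKM over 154 nt) and one at chr3:102725555-102725684 in the P7 library (CUFF.413694.1, 77.6 over 130 nt) overlapped, just beyond the 3′ end of Sycp1. No unnamed transcript joined Tshb to Sycp1 in any table. The longest spliced piece from Tshb, CUFF.809925.4 in Ghcre cells, ran over chr3:102684621-102697902 at 1.21 scaled FPKM and stopped short of Sycp1.

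The unnamed pieces went on through Sycp1. In the 107279 bases up to the start of XM_006501229.1 there were 49 in the adult and 76 in P7 Tshbcre cells, against 26 in Ghcre and 0 in each of Lhbcre and both whole glands. They covered 17.6% and 19.2% of this span in the Tshbcre libraries, which was 4.25 and 7.76 times the share on the chromosome, against 1.81% in Ghcre, 0.306 times its share. The Tshbcre libraries shared 9833 covered bases here, 52.2% of those in the adult and 47.7% of those in the P7 library. The cover ended before the outer start of the gene. The last piece lay 16596 bases short of the NM_011516.2 start in the adult and 9053 bases short in P7 Tshbcre cells. Between the starts of the 2 named transcripts there were 0 pieces in adult Tshbcre cells and 2 in P7 Tshbcre cells, and in the 59639 bases from Sycp1 to Sike1 there were 0 in each, against 17 in Ghcre, 1 in Lhbcre, 0 in the adult gland and 1 in the P7 glands.

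**Figure D3:**
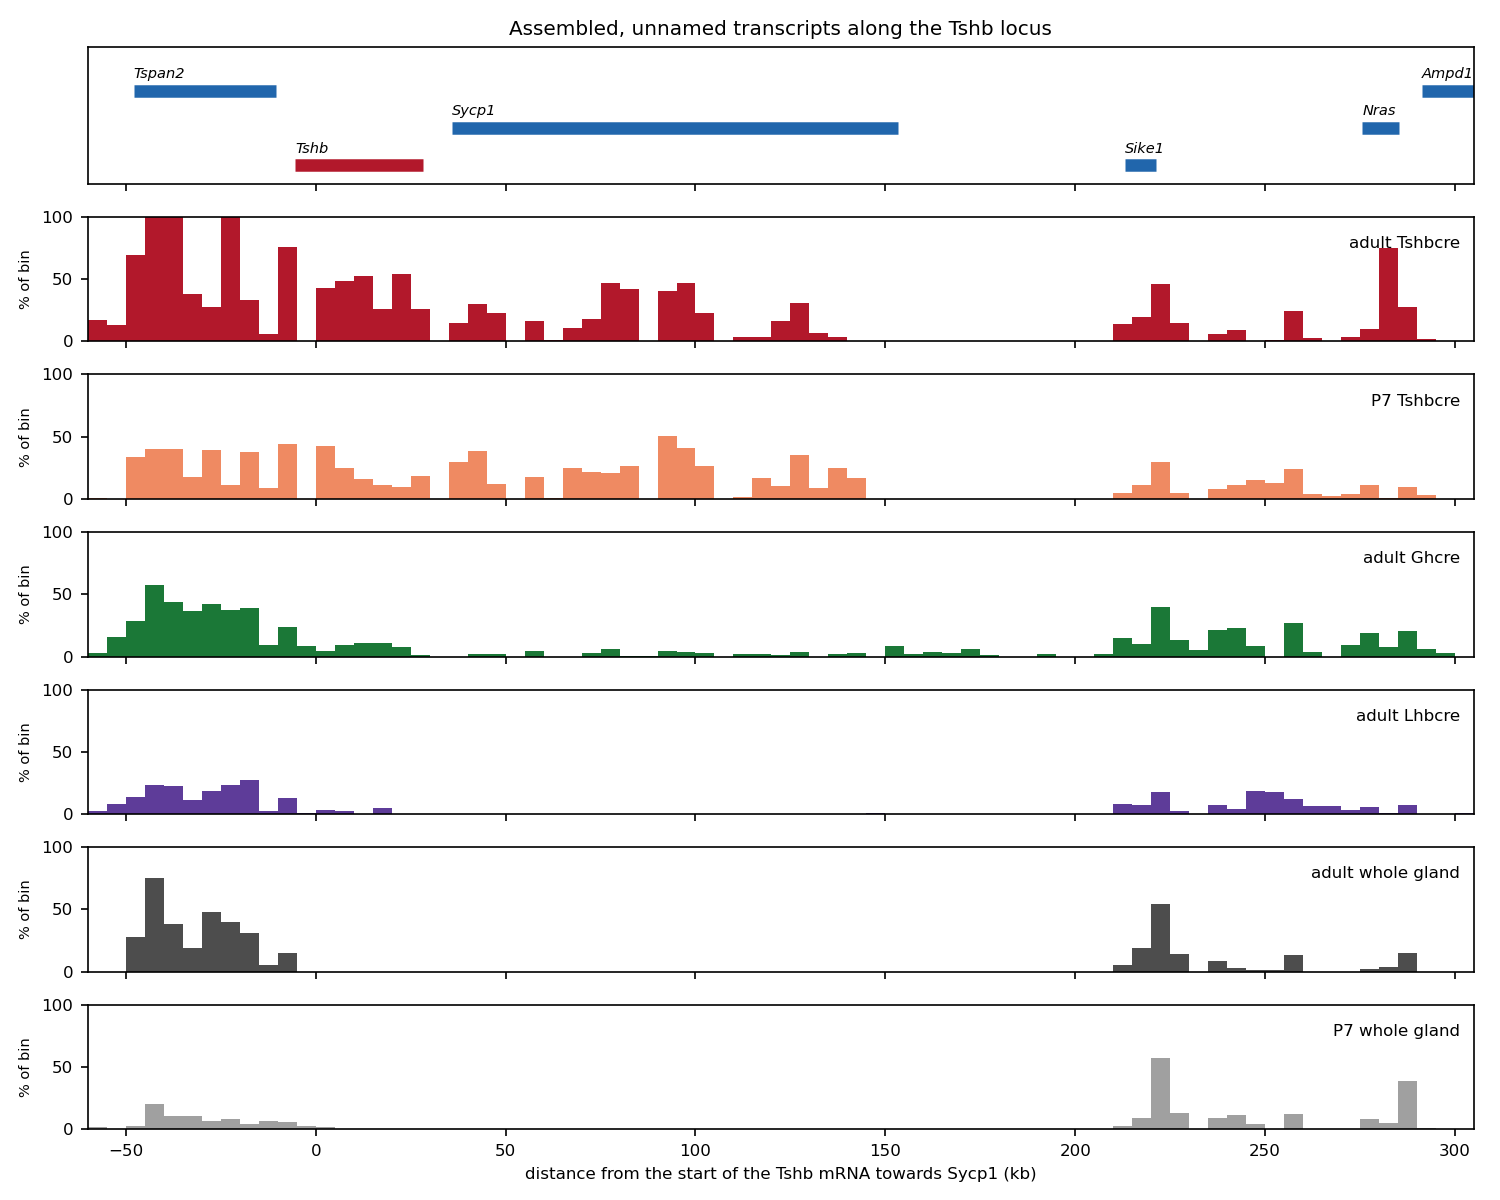
Share of each bin of 5 kb covered by unnamed assembled transcripts, by distance from the start of the Tshb mRNA towards Sycp1, 1 panel per library under a map of the named genes. In both Tshbcre libraries cover lies over Tspan2, on either side of the Tshb mRNA and, with gaps, over most of Sycp1. It is 0 in the bin over the Tshb mRNA and absent from Sycp1 to Sike1. Ghcre cells also have cover over Tspan2. The other 4 libraries have little or none over Sycp1, and all 6 have cover around Sike1 and Nras.

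On the far side of Tshb, Tspan2 lies on the opposite strand with its 3′ end 4994 bases from that of Tshb, so the genes point at each other. This gap was covered to 82.0% in adult Tshbcre cells and 46.5% in P7 Tshbcre cells, against 16.3% in Ghcre, 13.2% in Lhbcre, 14.6% in the adult gland and 5.49% in the P7 glands. Set against the chromosome these were 19.9 and 18.8 times in the Tshbcre libraries, against 2.76 in Ghcre, 9.27 in Lhbcre, 4.63 in the adult gland and 2.42 in the P7 glands. One adult Tshbcre piece of 2022 nt (CUFF.281318.1, 2.15 scaled FPKM) ended just short of Tshb. The tables give no strand, so a piece in this gap cannot be assigned to either gene.

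Tspan2 (chr3:102642086-102679626) had 13.7 (12.9 to 14.5) scaled FPKM in adult Tshbcre cells and 40.03 (37.9 to 42.2) in P7 Tshbcre cells, against 1.72 in Ghcre cells, 0 in Lhbcre cells, 7.62 in the adult gland and 10.004 in the P7 glands. The P7 Tshbcre library was the highest and adult Tshbcre cells came next. The log2 differences from the whole glands were 0.77 in the adult and 1.90 in the P7 comparison, a fold of 3.73 that lies just under the 4-fold line, where Sycp1 lies well over it. Within the Tshbcre libraries Tspan2 was 2.78-fold lower in the adult than at P7 on named transcripts and 2.07-fold lower with the unnamed transcripts of its identifier, beside 2.79-fold for Tshb on both.

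The 0 in the Lhbcre library is that of the named transcripts only. That table holds CUFF.392449.3, a spliced transcript of 4048 nt under the Tspan2 identifier at chr3:102656991-102679626, with 13.6 (12.98 to 14.3) scaled FPKM. The adult Ghcre table has CUFF.809847.1 at 6.92, the adult Tshbcre table CUFF.281296.3 at 5.13 and the P7 glands CUFF.181715.2 at 10.2. With the unnamed transcripts of its identifier, Tspan2 stood at 18.9 in adult Tshbcre cells and 40.03 in P7 Tshbcre cells, against 8.64 in Ghcre, 13.6 in Lhbcre, 7.62 in the adult gland and 20.2 in the P7 glands. The log2 differences were then 1.21 in the adult and 0.95 in the P7 comparison. With every unnamed transcript of 200 nt or more inside the gene added, which also changed the scaling of the libraries, the adult direction turned, to -1.15. The levels were then 23.5 in adult Tshbcre cells, the lowest of the 6 libraries, and 218 in P7 Tshbcre cells. They were 153 in Ghcre, 189 in Lhbcre, 53.4 in the adult gland and 46.4 in the P7 glands. On named transcripts alone adult Tshbcre cells were apart from Ghcre (5.41-fold, among 10.4% of genes apart) and from Lhbcre (14.7-fold, among 9.3%), and Lhbcre was apart from the adult gland (8.62-fold lower, among 9.31%). With the unnamed transcripts of its identifier none of these 3 remained at 4-fold. The folds were 2.06, 1.36 and 1.70, the last now higher in Lhbcre, where 8.91%, 7.22% and 7.15% of genes were apart.

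**Figure D4:**
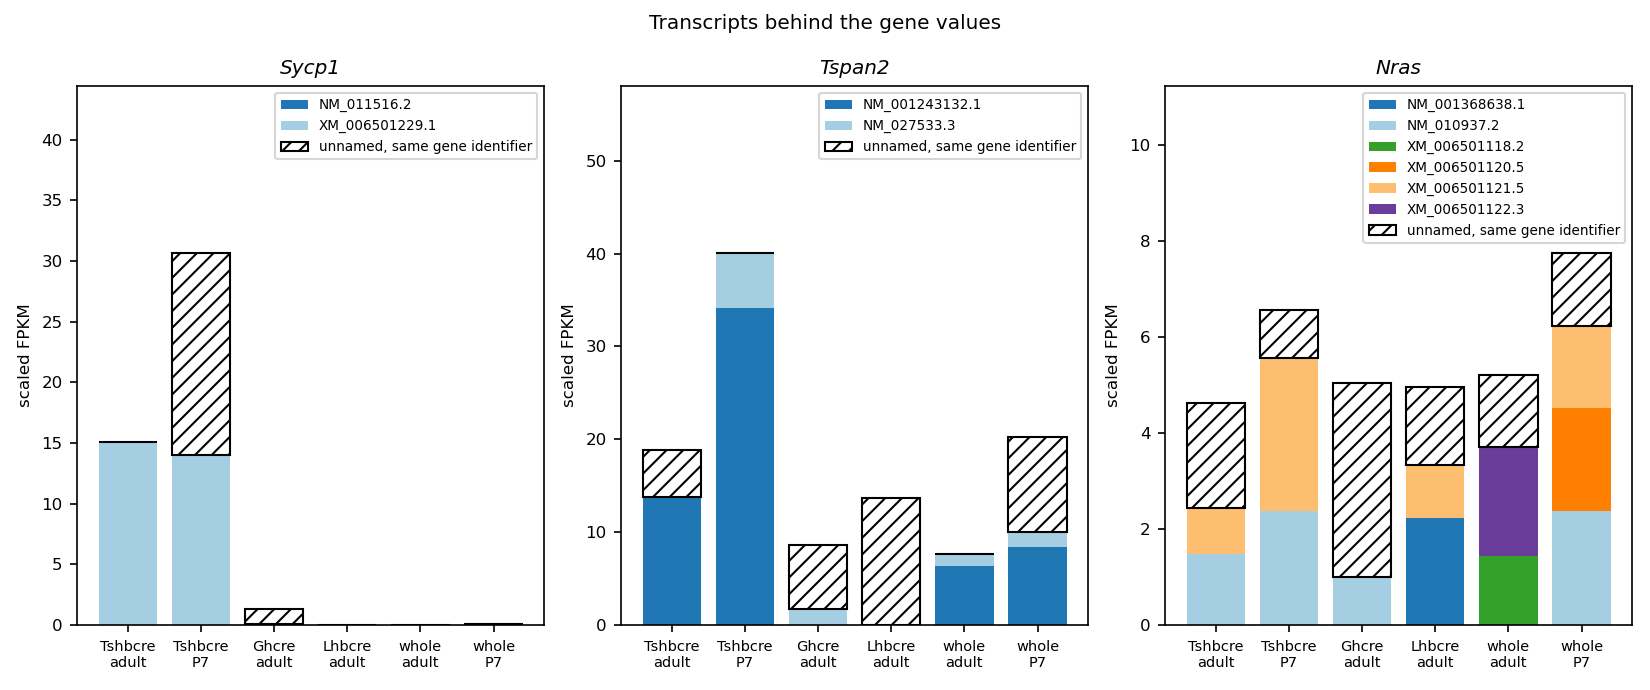
Scaled FPKM of each named transcript of Sycp1, Tspan2 and Nras (solid) and of the unnamed transcripts that carry the same gene identifier (hatched), by library. Sycp1 is on XM_006501229.1 in the Tshbcre libraries, all of the Lhbcre level of Tspan2 is unnamed, and the mix of Nras transcripts differs between libraries while its total stays between 4.63 and 7.75.

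Sike1 (chr3:102903056-102911230), 184880 bases beyond the longest Tshb transcript, had 5.22 (4.79 to 5.64) scaled FPKM in adult Tshbcre cells and 2.45 (2.13 to 2.78) in P7 Tshbcre cells, against 3.38 in Ghcre, 4.33 in Lhbcre, 4.48 in the adult gland and 3.79 in the P7 glands. The Tshbcre values lay at both ends of this narrow range. The log2 difference was 0.18 in the adult and -0.47 in the P7 comparison. With the unnamed transcripts of its identifier the 6 values ran from 4.33 to 6.17, and the differences were 0.18 and 0.17.

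Nras (chr3:102965601-102975230) had 2.44 (2.04 to 2.88) scaled FPKM in adult Tshbcre cells and 5.57 (5.01 to 6.18) in P7 Tshbcre cells, against 1.01 in Ghcre, 3.33 in Lhbcre, 3.71 in the adult gland and 6.23 in the P7 glands. The log2 differences from the whole glands were -0.45 in the adult and -0.14 in the P7 comparison. With every unnamed transcript of 200 nt or more inside the gene added, which also changed the scaling, they were 1.495 and -1.35. The adult direction thus turned. The named transcript that carried the level changed from library to library, NM_010937.2 and XM_006501121.5 in the Tshbcre libraries, NM_001368638.1 in Lhbcre and XM_006501122.3 in the adult gland. Over the whole identifier the levels were 4.63 in adult Tshbcre cells and 6.57 in P7 Tshbcre cells, against 5.05 in Ghcre, 4.97 in Lhbcre, 5.22 in the adult gland and 7.75 in the P7 glands.

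Ampd1 (chr3:102981330-103007038) was under 1 scaled FPKM in every library, with 0.116 in adult Tshbcre cells and 0.0715 in P7 Tshbcre cells, against 0.0569 in Ghcre, 0.191 in Lhbcre, 0.00809 in the adult gland and 0.0313 in the P7 glands. The adult Tshbcre and Lhbcre bounds, 0.0533 to 0.194 and 0.133 to 0.257, overlapped, and no fold was formed at these levels.

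Farther genes of the locus were taken as a list of 14. Of the 8 measured in the adult Tshbcre comparison none was apart in either direction, with a median log2 difference of -0.27. Of the 10 measured at P7, 1 was apart, Olfml3, lower at 0.465 scaled FPKM in P7 Tshbcre cells against 8.44 in the P7 glands, with a median of -0.05. These counts are near the shares over all genes, 7.06% and 9.38%. Nr1h5, a nuclear receptor gene just beyond the outer end of Sycp1, was at 0.208 and 0.386 in the Tshbcre libraries, against 0.0534 to 0.217 in the whole glands and Ghcre and 0.0263 in Lhbcre. No measured gene of the list was apart and higher at either age.

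**Figure D5:**
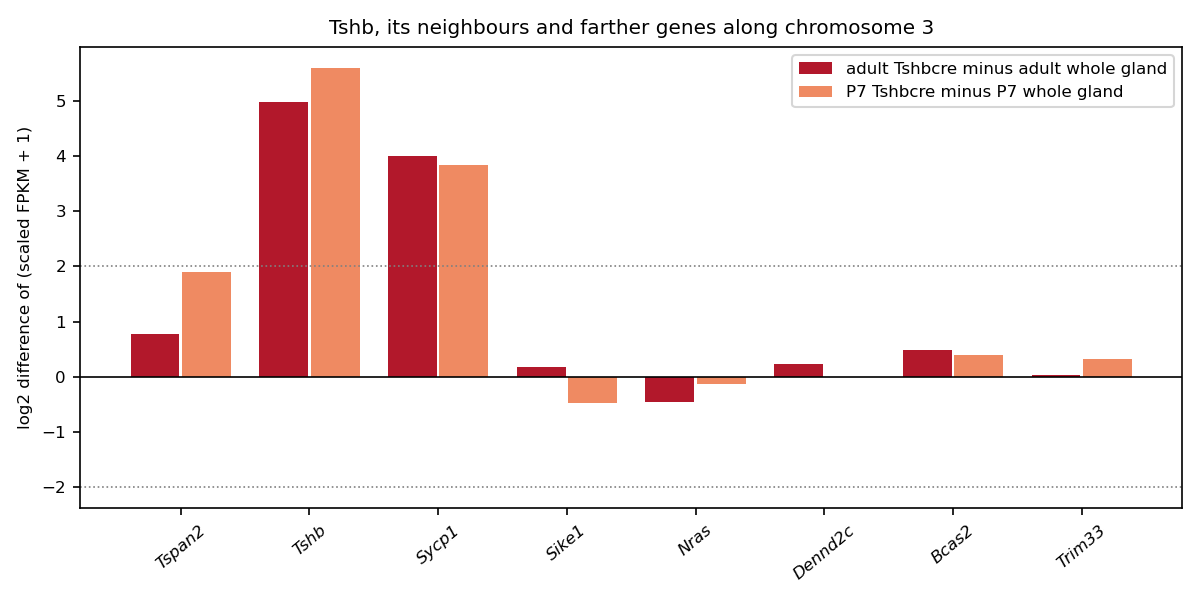
Log2 difference of (scaled FPKM + 1) for Tshb, its measured neighbours and 3 farther genes that reached 1 scaled FPKM, in their order along chromosome 3, with dotted lines at 4-fold. Tshb and Sycp1 pass the upper line in both comparisons, Tspan2 reaches 1.90 at P7, and the other genes lie between -0.47 and 0.49.

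Sycp1 works in meiosis with a set of partner genes. Of 23 listed genes of the synaptonemal complex and meiosis, 2 reached 1 scaled FPKM in the Tshbcre comparisons. The rest stayed under that level, where Sycp1 had 15.1 and 14.0 in the adult and P7 Tshbcre libraries. Neither of the 2 was apart. Over all genes 7.06% were apart in the adult and 9.38% in the P7 comparison, so 2 genes cannot show whether the partners follow Sycp1. Rec8, a cohesin subunit, had 19.0 and 6.14 in the adult and P7 Tshbcre libraries, against 15.2 in Ghcre, 19.8 in Lhbcre, 28.2 in the adult gland and 10.3 in the P7 glands. Syce2, a central element gene, had 1.26 and 0 in the Tshbcre libraries, against 2.46 in Lhbcre, 0 in the adult gland and 2.01 in the P7 glands, and is not listed in the Ghcre table. Sycp3, the lateral element gene, and Meiob were listed at 0 in all 6 tables, and Sycp2 was at 0.0521 or less in each. Of 10 germ cell markers none reached 1 in a library of either comparison, and their summed level was 0.306 and 0.272 in the adult and P7 Tshbcre libraries, against 0.360 and 0.421 in the adult and P7 whole glands. Ddx4 was at 0.0716 and 0.00661 and Dazl at 0.0424 and 0.0251 in the Tshbcre libraries, against 0.0576 and 0.0433 and 0.0254 and 0.0123 in the whole glands.

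The families and partners of the other neighbours were set out in the same way. Of 17 tetraspanins measured in the adult comparison none was apart, and of 19 at P7, 1 was, Tspan12, listed at 0 in P7 Tshbcre cells against 5.76 in the P7 glands. Of the myelin genes, Mog was at 0 in all 6 tables, and 1 of 3 measured at P7 was apart, Cldn11, lower. Of 16 STRIPAK and SIKE1 partner genes measured in the adult comparison 2 were apart, Strn3 and Irf3, and of 17 at P7, 2 were, Cttnbp2nl and Irf3. These 4 calls are all of genes listed at 0 in the Tshbcre library. Tbk1, the kinase that SIKE1 holds back, had 4.05 and 3.31 in the Tshbcre libraries, against 3.17 and 4.26 in the whole glands.

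Among 21 measured genes of Ras signalling, Rras was higher and Hras lower in the adult comparison, and each of these 2 calls rests on a library where the gene was listed at 0. Dusp6 and Spry2, feedback inhibitors that rise with MAPK signalling, were lower without passing 4-fold, Dusp6 at 2.57 and 2.56 in the Tshbcre libraries against 5.35 and 10.7 in the whole glands, and Spry2 at 3.32 and 2.93 against 5.27 and 11.6. None of 8 measured genes of AMP deamination and the purine nucleotide cycle was apart at either age. Ampd2, the widely used AMP deaminase, had 13.9 and 3.48 in the Tshbcre libraries against 18.9 and 9.71 in the whole glands. Of 14 skeletal muscle markers 2 reached 1 scaled FPKM in the adult comparison, and none was apart. Of the 3 that reached it at P7, 1 was apart, Ryr1, higher at 4.31 in P7 Tshbcre cells against 0.197 in the P7 glands. Mylpf was at 0 in every table that lists it.

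The labelled cell types can be read from their markers, beside shares over all genes of 3.22% higher and 3.84% lower in the adult and 3.26% and 6.11% in the P7 comparison. Of 11 thyrotrope markers 7 were higher in the adult Tshbcre comparison: Tshb, Cga, Trhr, Dio2, Gata2, Foxl2 and Isl1. Tshb drove the Cre used for sorting, so its call reflects the sort and is no support. Cga was also higher in Lhbcre cells against the adult gland. Trhr is the receptor for the releasing hormone TRH, and Dio2 is a deiodinase. At P7, 4 were higher, Tshb, Cga, Trhr and Dio2, and 1 lower, Foxl2, which was listed at 0. Gonadotrope markers were high in Tshbcre cells too, with 5 of 6 higher in the adult comparison. At P7, 3 were higher and 1 lower, Nr5a1, which was listed at 0 in P7 Tshbcre cells against 6.09 in the P7 glands. The 6 summed to 4454 scaled FPKM in the adult and 1951 in P7 Tshbcre cells, against 2914 in Lhbcre, 949 in the adult gland and 458 in the P7 glands. Lhb was at 2904 in adult Tshbcre cells and 2198 in the Lhbcre library, while Sycp1 was at 15.1 and at 0 in them. Endothelial markers were lower in the Tshbcre libraries, with 4 of 8 apart in the adult and 8 of 8 in the P7 comparison and sums of 17.8 and 5.48 against 129 and 108 in the whole glands. Their part in the levels of Tspan2 was not tested.

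Limits drawn around the values of Sycp1 were then applied to all genes, as a description. Of the 32908 genes listed in all 6 tables, 2 had 10 scaled FPKM or more in both Tshbcre libraries and 0.1 or less in the other 4, Sycp1 and Gm25038, a small nucleolar RNA at 51.1 and 37.3 in the Tshbcre libraries and 0 in the others. At 5 or more in both and 0.5 or less in the other 4 there were 5 genes. These limits were set after the values of Sycp1 were known, and with its unnamed transcripts Sycp1 itself, at 1.28 in Ghcre, would pass neither. At the 4-fold line, 78 of 14256 genes compared at both ages, or 0.547%, were higher in both Tshbcre comparisons, Tshb and Sycp1 among them.

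Across the 6 libraries the 5 genes whose log2 levels were most like those of Sycp1, of 11880 ranked by Pearson's r, were Ppp3r2 (0.99), Jph4 (0.99), the lncRNA 2310081J21Rik (0.99), Trhr (0.99) and Entpd4b (0.99), and Tshb ranked 62 with 0.93. Trhr had 10.9 and 14.6 in the Tshbcre libraries, against 0.688 in Ghcre, 1.17 in Lhbcre, 0.790 in the adult gland and 1.36 in the P7 glands. Jph4, a junctophilin gene, had 5.16 and 5.06, against 0.201 in Ghcre, 0.427 in Lhbcre, 0.418 in the adult gland and 0.613 in the P7 glands. For Tspan2 the most alike were Srrm2, Gm11847, Kat7, Gm20075 and Gm13648, all with 0.99 or more, and Tshb ranked 309 with 0.88. Sike1, Nras and Ampd1 had values of -0.23, 0.48 and -0.02 with Tshb. These figures rest on 6 points, of which 2 are the Tshbcre libraries, and describe order only.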

How the data were processed

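RNA was sequenced from 6 mouse pituitary samples, 1 for each group in the labels. Libraries were made from 250 ng of RNA after removal of ribosomal RNA, per the labels' protocols. The submitters' processing notes name FastQC, Bowtie2 and Cufflinks, with no version, and the build mm39. The authors deposited 1 Cufflinks isoform table per library, with FPKM per transcript, its bounds and a coverage signal. The deposited coverage was a constant multiple of FPKM in each table (2.68 to 7.32), a relative depth only; the sources used here give neither read numbers nor the use of strand, so overlapping genes cannot be told apart. The adult Ghcre table ended within chromosome 5, and all 5 members are listed in it.

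Gene values were sums of FPKM over named transcripts, divided by a median-of-ratios factor over the 5808 genes that reached 1 FPKM everywhere (0.758 to 1.42). A pseudocount of 1 was used. Starts in the tables count from 0 and are given here from 1. Unnamed transcripts were added to a gene where they carried its identifier and that identifier held 1 gene name, as an alternative chosen after the data were seen. Very short unnamed transcripts reach extreme FPKM, so mainly their number and covered bases were used, and FPKM from 200 nt, apart from pieces whose length is given beside the value. Promoters and strands came from RefSeq on GRCm38.p6, with no coordinates carried between builds. The members and gene lists were chosen with earlier results of these data known. The text names all members, the genes of a list that were apart and up to 4 more with the highest means, and the 5 genes most alike; other genes named were chosen after their values were seen. Some genes and stretches are not reported here. The method of scaling and the 4-fold comparison were tested on simulated data, and the other steps were not. All steps were run in Python 3.11.15 with pandas 2.3.3 and numpy 2.4.6.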

Additional observations from a re-analysis of the deposited data

Results flagged for a closer look

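The adult and P7 Tshbcre comparisons of Sike1 had opposite signs: the log2 difference was 0.18 in the adult Tshbcre library against the adult whole gland and -0.47 in the P7 Tshbcre library against the P7 whole gland, the adult value being 0.65 above the P7 value. Each comparison has 1 library on each side, the adult bounds (-0.02 to 0.39) include 0, and the difference was not tested. With the unnamed transcripts under the Sike1 identifier added the signs were the same, at 0.18 and 0.17.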

How the results depend on the processing

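Sycp1 was higher in both Tshbcre comparisons under every alternative except its full-length transcript alone, where the log2 difference was 0 in the adult and -0.077 in the P7 comparison. Its adult difference of 4.01 was 3.64 with equal sums over annotated genes, 7.25 with a pseudocount of 0.1, 2.01 with a pseudocount of 5 and 7.19 with all unnamed transcripts of 200 nt or more in the gene added. Its P7 difference of 3.83 was 6.51 with a pseudocount of 0.1, 1.91 with a pseudocount of 5, 8.57 with the unnamed transcripts of 200 nt or more added and 4.91 with those of its identifier. With the unnamed transcripts of 200 nt or more added, the adult directions of Tspan2 and Nras turned, to -1.15 and 1.495, and Nras was -1.35 at P7. That setting also changed the scaling of the libraries: Tshb in adult Tshbcre cells was at 958 scaled FPKM under it, against 1075 in the main reading. The count of members apart, 1 at each age, was 0 in the adult comparison over genes above 0 in both libraries, which drops Sycp1. At P7 it was 0 with a pseudocount of 5 and 2, with Tspan2 joining, under equal sums, at 2-fold and with unnamed transcripts of 200 nt or more added. Unnamed transcripts between Tshb and Sycp1 at 200 nt or more numbered 24, 5, 0, 0 and 0 in adult Tshbcre, P7 Tshbcre, Ghcre, Lhbcre and the P7 whole gland.

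Over all genes the adult count of 1115 apart was 2375 and 310 with pseudocounts of 0.1 and 5, 204 above 0 in both, 3250 at 2-fold and 2081 with unnamed transcripts added. At P7 the count of 1535 was 3454, 408, 456, 4548 and 4110 under the same settings. The share of calls that were higher at P7, 34.8%, was 24.6% on FPKM as deposited, where the median of all genes was -0.47. No paired analysis was possible because each group has 1 library. With 1 library per group and unknown read numbers, the spread between animals and the depth behind a low value are not known, and leaving out a replicate could not be run.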

Other observations

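For the neighbours that did not follow Tshb, the genes most alike over the 6 libraries were Taok1, Rnf157, Id1, H2ac8 and Zbtb14 for Nras, with Pearson's r from 0.98 to 0.997, and Gm36746, Gm3213, 4930405J17Rik, Gm4518 and Gchfr for Ampd1, from 0.96 to 0.98. Each r is over 6 points among 11880 genes or more. Id1, an inhibitor of DNA binding by helix-loop-helix factors, had 1.09 scaled FPKM in the adult Tshbcre library and 4.07 in the P7 Tshbcre library, against 0.346 in Ghcre, 2.33 in Lhbcre, 2.88 in the adult gland and 6.32 in the P7 glands.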
